A study of Mus musculus with 28 samples.

Results

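The 10 genes described here are Atf4 and 9 targets of the transcription factor it encodes: Ddit3, Trib3, Chac1, Asns, Psat1, Phgdh, Slc7a11, Sesn2 and Ddit4. They were chosen by name, as ATF4 and its amino acid stress targets, with earlier results of these data known. All 10 were found among the 24980 gene names of the nascent RNA tables. Nascent RNA was assayed by Bru-seq, that is, by sequencing the RNA captured through bromouridine (BrU) built in during a short labelling, in 12 libraries of mouse embryonic stem cells (mESCs) with and without Elongin A (EloA), a subunit of the Elongin elongation factor that is encoded by Eloa. The question was what loss of EloA does to transcription and to the speed of elongation.

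WT cells were the wild-type CCE28 line and EloA null cells its counterpart lacking EloA. Both were kept on mouse embryonic fibroblast feeders with LIF and the 2i inhibitors PD0325901 at 1 µM and CHIR99021 at 3 µM, and were depleted of feeders by plating before labelling. In steady state, cells received 2 mM BrU for 10 min with no inhibitor. In the recovery groups, the CDK9 inhibitor flavopiridol was applied at 1 µM for 60 min, so that polymerase was held near promoters, and was then washed out, and cells received 2 mM BrU for 5 min or for 10 min (5-min and 10-min recovery). Each of the 6 groups had 2 libraries. The study's legends call its Bru-seq experiments independent, and no label says what was separate (cultures or days), so the p-values measure the spread between these libraries. The null line is the only one used, so the genotype cannot be told apart from other differences between these lines, and another label names the line CJ7.

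ATF4 is the effector of the integrated stress response. Kinases that sense amino acid shortage, unfolded protein, haem shortage or double-stranded RNA phosphorylate the initiation factor eIF2, general translation falls, and Atf4 mRNA, which carries upstream reading frames, is translated better. The protein pairs with C/EBP family partners at composite DNA elements and induces genes for amino acid synthesis and uptake, glutathione metabolism and restraint of mTORC1. Since ATF4 is regulated largely at translation, nascent RNA of Atf4 itself is not a measure of ATF4 protein.

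Libraries held from 9857528 to 28547356 reads, and the 4 libraries of 5-min recovery were the shallowest, at up to 17272751 reads. Replicates of a group differed by more than counting noise, with chi-square per degree of freedom from 8.42 to 19.7. Eloa was measured at 1.18 and 1.16 RPKM (reads scaled to gene length and library size) in WT steady-state libraries and at 1.96 and 1.89 RPKM in EloA null ones, which is higher in both libraries labelled null. It was also higher in both null libraries at 5-min recovery, at 5.14 and 6.25 RPKM against 2.96 and 2.82 RPKM, and at 10-min recovery, at 8.74 and 8.93 RPKM against 4.65 and 6.51 RPKM. Its limma adjusted p was 0.0999, 0.249 and 0.176 in the 3 conditions. Which part of Eloa is deleted is not given in the sources used here, so a value over its introns does not check the labels, and every direction below is between libraries as labelled. The first steady-state library titled EloA null carries a genotype label of wild type. It was grouped by title, and its Eloa value of 1.96 RPKM stood beside the other null library and apart from both WT libraries. ES cell markers were expressed in steady state (9 of 9 above 0.5 RPKM, summing to 176 to 195 RPKM), while the 10 feeder fibroblast markers summed to 1.25 to 1.68 RPKM with none above 0.5 RPKM in either genotype. None of those 10 was at 0 in all 4 steady-state libraries. Bulk libraries cannot tell fewer cells of a type from less RNA per cell.

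The promoters of these genes were searched for the element that ATF4 and C/EBP proteins share, TGATGNAA on either strand, in the 250 bases before and 50 bases after the start of each gene in RefSeq (build GRCm38.p6). The element was found at 4 of the 10 genes, beside 3.97% of 32851 RefSeq promoters of the same length. The stricter form TGATGCAA, whose matches are a subset of these, was found at 2 genes, Chac1 and Slc7a11, beside 0.895% of promoters. The cyclic AMP response element TGACGTCA, searched in the same way, was at none of the 10 genes and at 1.79% of promoters. The stretches with a match are shown, 5′ to 3′ on the strand of the gene, because they are where the genes differ in this element, with the matched bases in capitals. For Asns the stretch is chr6:7693210-7693459 on the minus strand, for Slc7a11 chr3:50443614-50443863 on the minus strand, for Chac1 chr2:119351023-119351082 on the plus strand and for Trib3 chr2:152344028-152344057 on the minus strand.
Asns: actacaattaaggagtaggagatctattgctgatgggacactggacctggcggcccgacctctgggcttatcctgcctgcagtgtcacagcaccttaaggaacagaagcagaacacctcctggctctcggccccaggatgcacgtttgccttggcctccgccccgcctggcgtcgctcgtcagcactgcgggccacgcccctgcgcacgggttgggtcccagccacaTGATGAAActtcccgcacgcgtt
Slc7a11: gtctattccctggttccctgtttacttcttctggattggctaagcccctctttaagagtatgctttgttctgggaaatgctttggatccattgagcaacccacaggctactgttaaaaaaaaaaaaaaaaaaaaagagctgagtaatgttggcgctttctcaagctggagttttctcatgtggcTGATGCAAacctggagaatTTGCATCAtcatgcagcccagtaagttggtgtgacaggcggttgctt
Chac1: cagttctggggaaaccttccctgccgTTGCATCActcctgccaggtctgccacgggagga
Trib3: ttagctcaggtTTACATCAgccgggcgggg
In Asns the match began 23 bases before the start and read in the direction of the gene. Slc7a11 held a pair on opposite strands, at 66 and 47 bases before the start. In Chac1 the match was 193 bases before the start and on the opposite strand, and in Trib3 it was on the opposite strand and began 14 bases after the first base of the transcript. A match of letters is a description of the sequence and says nothing of binding in these cells, and elements outside this window were not searched.

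In WT cells in steady state the 10 genes spanned a wide range of nascent RNA, from Asns, with a mean of 30.9 RPKM and above 99.6% of all gene names, down to Slc7a11, with a mean of 0.0357 RPKM. RPKM is scaled by length, so levels can be set beside each other, with the limit that the length used is that of the introns (415 of 2096 bases in Ddit4 and 922 of 2362 in Atf4) and that it is not known whether reads in exons were counted too, which would raise genes with short introns such as these. Asns was followed by Sesn2 (5.57 RPKM), Atf4 (5.37), Ddit3 (3.90), Psat1 (2.79), Chac1 (1.38), Ddit4 (1.28), Phgdh (0.856) and Trib3 (0.625). The WT libraries of neighbouring genes overlapped only for Sesn2 and Atf4 and for Chac1 and Ddit4, and the other neighbours were in the same order in both libraries. In EloA null cells the order was the same apart from Atf4 and Sesn2, and the libraries of these and of Chac1 and Ddit4 overlapped again, as did those of Phgdh and Trib3. The levels of the amino acid enzymes were thus far apart, with Asns well above Psat1 and Phgdh, which catalyse successive steps of serine synthesis.

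**Figure D1:**
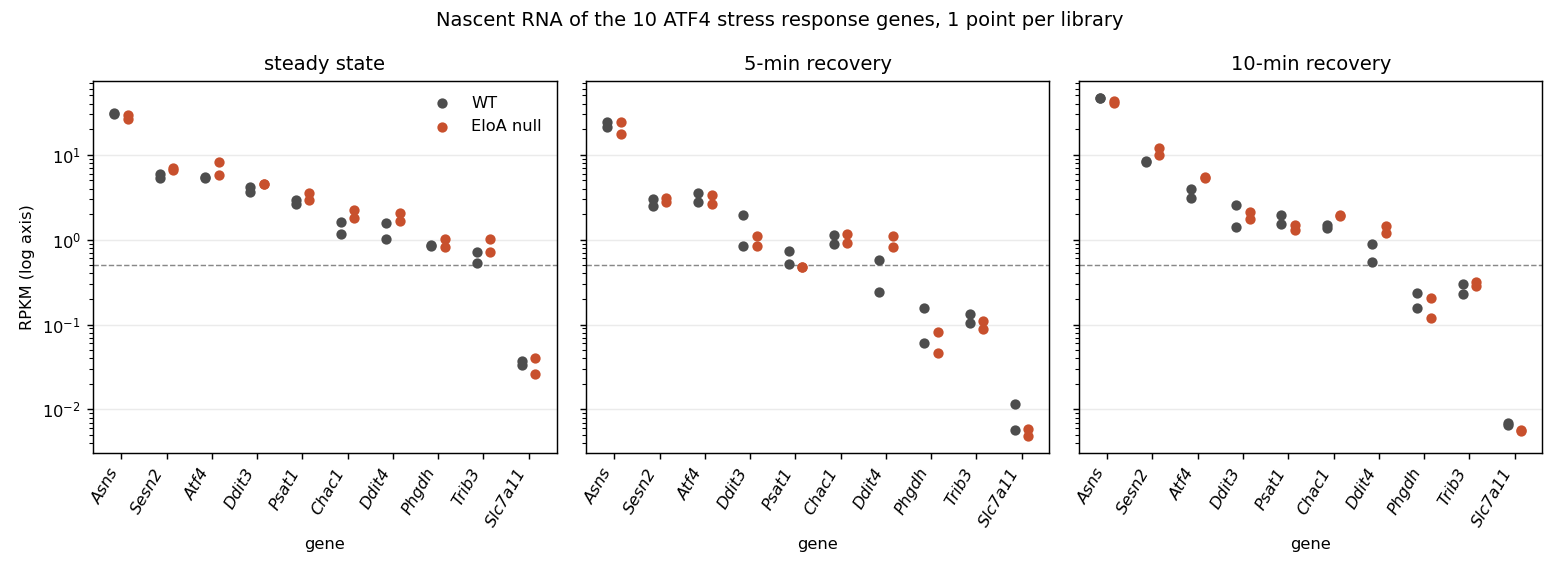
RPKM on a log axis of the 10 genes, in order of their WT steady-state mean, in steady state, 5-min and 10-min recovery. Each point is 1 library, grey for WT and orange for EloA null, and the dashed line is the expression limit of 0.5 RPKM. Asns is the top gene and Slc7a11 the bottom gene in all 3 panels, and the 2 genotypes lie close together beside the spread between genes.

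Comparison of EloA null with WT mESCs in steady state asks whether loss of EloA changes the basal transcription of the ATF4 programme. None of the 9 genes tested passed an adjusted p of 0.05 (limma on log2(RPKM + 0.1), Benjamini-Hochberg over 11345 expressed genes, of which 0% passed). As no gene of the genome passed, this says nothing of the size of the differences. An unadjusted p under 0.05 was met by 2 of the 9 genes, and by 18.4% of all genes tested. The null libraries both lay above both WT libraries for 5 genes (32% of all genes tested), both below for 1 gene (21.4%) and overlapped with WT for 3. No gene differed by over 1.5-fold without overlap, where 6.24% of all genes were higher and 1.5% lower by that much. The median log2 fold change was 0.27 over the 9 genes and 0.03 over all genes tested. Slc7a11, below 0.5 RPKM in both genotypes, was not tested.

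Among the regulators, Atf4 (chr15:80255184-80257545, plus strand, mm10), the transcription factor of the response, was measured at 5.31 and 5.44 RPKM in WT and at 5.72 and 8.19 RPKM in EloA null libraries. The second null library stood above the other 3, and the log2 fold change was 0.34 ± 0.19 (SE, n = 2 per genotype, limma adjusted p = 0.40). Without the second null library it was 0.09, and with the trend of each library with GC content removed it was 0.07. Ddit3 (chr10:127290793-127296288, plus strand), which encodes the proapoptotic partner CHOP, was at 4.15 and 3.65 RPKM in WT and 4.48 and 4.55 RPKM in null libraries. These did not overlap, and the log2 fold change was 0.21 ± 0.10 (limma adjusted p = 0.352). Ddit3 overlaps Mbd6 and Mars1 on the opposite strand, and although strands were separated by the authors, whether these reads were counted by strand is not stated. Trib3 (chr2:152337425-152344060, minus strand), a pseudokinase that damps ATF4 and CHOP activity, was at 0.720 and 0.530 RPKM in WT and 1.01 and 0.709 RPKM in null libraries. Its groups overlapped, with a log2 fold change of 0.40 ± 0.22 (limma adjusted p = 0.408).

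Chac1 (chr2:119351242-119354326, plus strand) encodes an enzyme that degrades glutathione. It was at 1.60 and 1.15 RPKM in WT and 2.22 and 1.81 RPKM in null libraries, on 49 to 78 reads each. Both null libraries were thus above both WT libraries. With a log2 fold change of 0.53 ± 0.19 it had the smallest adjusted p of the 9 genes in this condition (limma unadjusted p = 0.0430, adjusted p = 0.256). Slc7a11 (chr3:50364936-50443613, minus strand), the cystine importer that feeds glutathione synthesis, was at 0.0337 and 0.0376 RPKM in WT and at 0.0398 and 0.0263 RPKM in null libraries. These values rest on 51 to 73 reads per library over a gene of 78678 bases, and the genotypes overlapped.

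The amino acid enzymes had the smallest log2 fold changes of the 9 genes in the main fit, with Psat1 close to Ddit3 (0.21 ± 0.10). With the GC trend removed this order did not hold, as Psat1 (0.19) then exceeded Atf4 (0.07), Ddit3 (0.12) and Sesn2 (0.15). Asns (chr6:7675165-7693209, minus strand), asparagine synthetase, was at 31.4 and 30.5 RPKM in WT and 29.7 and 26.4 RPKM in null libraries, on 11070 to 13698 reads per library. It was the only one of the 9 with both null libraries below both WT libraries, by a log2 fold change of -0.14 ± 0.11 (limma adjusted p = 0.530). Psat1 (chr19:15905123-15925059, minus strand), phosphoserine aminotransferase, was at 2.93 and 2.65 RPKM in WT and 3.55 and 2.92 RPKM in null libraries. Phgdh (chr3:98313171-98339969, minus strand), the dehydrogenase that opens serine synthesis, was at 0.876 and 0.837 RPKM in WT and 1.01 and 0.817 RPKM in null libraries. For both of these the genotypes overlapped, with log2 fold changes of 0.20 ± 0.13 for Psat1 and 0.08 ± 0.13 for Phgdh.

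The 2 genes that restrain mTORC1 were both higher in the null libraries. Sesn2 (chr4:132492804-132510456, minus strand), a leucine sensor upstream of mTORC1, was at 5.87 and 5.28 RPKM in WT and 6.94 and 6.54 RPKM in null libraries. Its libraries did not overlap, on 2105 to 2743 reads each, and the log2 fold change was 0.27 ± 0.10 (limma unadjusted p = 0.0486, adjusted p = 0.270). Ddit4 (chr10:59949675-59951770, minus strand), also called REDD1, which acts through the TSC complex, was at 1.01 and 1.55 RPKM in WT and 1.67 and 2.07 RPKM in null libraries. The log2 fold change was 0.53 ± 0.23 (limma adjusted p = 0.32), but Ddit4 rests on 10 to 24 reads per library, because the length behind its RPKM is 415 bases. Its 95% Poisson intervals, which cover counting error only, ran from 4.8 to 18.4 reads in the library with 10 reads and from 15.4 to 35.7 reads in the library with 24.

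Leaving out other libraries also moved these values. Over the 4 libraries left out in turn, the steady-state log2 fold change ran from 0.17 to 0.62 for Trib3 and from 0.31 to 0.75 for Chac1, and from 0.24 without the first WT library to 0.82 without the second for Ddit4. Removing the trend with GC content, an adjustment chosen after seeing the data, lowered most of the differences, to 0.12 for Ddit3, 0.23 for Trib3, 0.33 for Chac1, 0.15 for Sesn2, 0.24 for Ddit4 and -0.06 for Asns.

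The library with conflicting labels did not decide the direction of these differences, except for Phgdh. Without it, the log2 fold changes in steady state were 0.60 for Atf4, 0.22 for Ddit3, 0.17 for Trib3, 0.39 for Chac1, -0.23 for Asns, 0.06 for Psat1, -0.06 for Phgdh, 0.23 for Sesn2 and 0.68 for Ddit4, and none passed the adjusted p of 0.05 in that limma fit. With 1 null library left, that fit takes the lone library to vary like the WT pair.

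**Figure D2:**
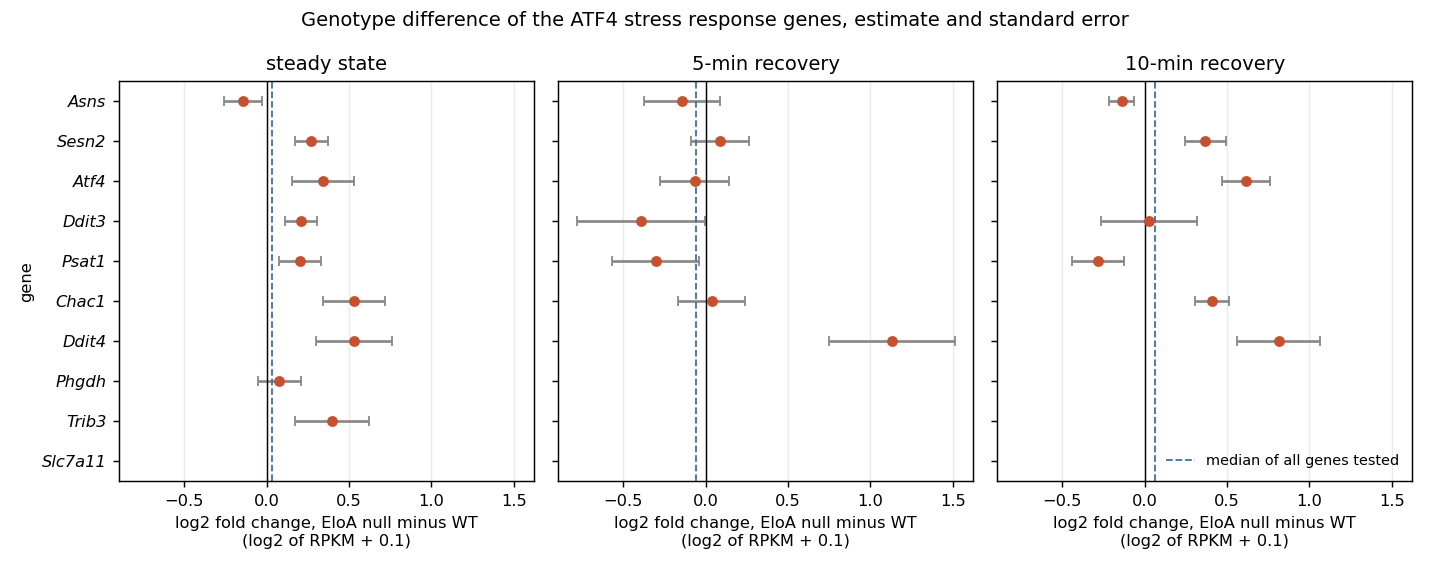
Log2 fold change of EloA null over WT (log2 of RPKM + 0.1), with its standard error, for the genes expressed in each condition. The dashed line is the median of all genes tested, 0.03 in steady state, -0.06 at 5-min and 0.06 at 10-min recovery. Asns lies below 0 in all 3 panels and Ddit4 above 0 in all 3.

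At 5-min recovery, polymerases released from the promoter have had 5 min to move, and the comparison asks whether EloA changes this early wave. Of the 10 genes, 7 were expressed above 0.5 RPKM and tested, and none passed the adjusted p of 0.05 (limma, 8984 genes, of which 0% passed). An unadjusted p under 0.05 was met by 1 gene, Ddit4, and by 9.42% of all genes. Genotypes overlapped for 5 of the 7 genes, and Ddit4 was higher (15.4% of all genes) and Psat1 lower (25%) in both null libraries. Ddit4 alone was over 1.5-fold higher without overlap, as were 4.36% of all genes. No gene was over 1.5-fold lower without overlap, as were 4.91% of all genes. The median log2 fold change of the 7 genes, -0.07, stood beside -0.06 over all genes tested.

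Atf4 was at 3.52 and 2.74 RPKM in WT and at 2.64 and 3.33 RPKM in null libraries after 5 min, and its genotypes overlapped. Ddit3 was at 1.95 and 0.844 RPKM in WT and 1.09 and 0.842 RPKM in null libraries, and the first WT library stood above the other 3. Trib3, on 6 or 7 reads in each library, was between 0.0883 and 0.133 RPKM. None of the 3 regulators thus separated the genotypes at 5 min.

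Chac1 was at 1.13 and 0.883 RPKM in WT and 1.16 and 0.914 RPKM in null libraries, on 17 to 24 reads each. Slc7a11 lay between 0.00483 and 0.0117 RPKM on 4 to 8 reads. Asns was at 21.5 and 24.3 RPKM in WT and at 17.5 and 24.3 RPKM in null libraries, with the first null library below the other 3. Psat1 was at 0.736 and 0.511 RPKM in WT and at 0.481 and 0.475 RPKM in null libraries. For Psat1 the log2 fold change was -0.30 ± 0.26 (SE, n = 2 per genotype, limma adjusted p = 0.782). Phgdh, below the expression limit, was at 0.159 and 0.0601 RPKM in WT and 0.0807 and 0.0464 RPKM in null libraries.

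Sesn2 was at 3.01 and 2.47 RPKM in WT and 2.74 and 3.08 RPKM in null libraries, which overlapped. Ddit4 was at 0.244 and 0.571 RPKM in WT and at 0.809 and 1.12 RPKM in null libraries, a log2 fold change of 1.13 ± 0.38 (limma adjusted p = 0.499). That value rests on 4 reads in the WT pair and 12 in the null pair. Ddit4 was not tested when genes needed a mean of 20 reads per library.

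At 10-min recovery the same 7 genes were expressed and tested, and none passed the adjusted p of 0.05 (limma, 10239 genes, of which 0% passed). Atf4, Chac1, Sesn2 and Ddit4, 4 of the 7 genes, had an unadjusted p under 0.05, beside 20.5% of all genes. These 4 were higher in both null libraries (33.5% of all genes), Asns and Psat1 were lower in both (21.8%), and Ddit3 overlapped. Atf4 and Ddit4 were over 1.5-fold higher without overlap, as were 8.43% of all genes, and none was over 1.5-fold lower, as were 2.25%. The median log2 fold change was 0.37 over the 7 genes and 0.06 over all genes tested. With the trend of each library with GC content removed, the log2 fold changes of the 4 higher genes were smaller, at 0.28 for Atf4, 0.19 for Chac1, 0.24 for Sesn2 and 0.46 for Ddit4, none of them over 1.5-fold, and that of Asns was -0.04.

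Atf4 was at 3.98 and 3.10 RPKM in WT and at 5.54 and 5.32 RPKM in null libraries. Both null libraries exceeded both WT libraries, and the log2 fold change was 0.61 ± 0.15 (SE, n = 2 per genotype, limma unadjusted p = 0.0109, adjusted p = 0.160). Leaving out each library in turn gave Atf4 log2 fold changes from 0.44 to 0.79, and the lower value, without the second WT library, no longer passed 1.5-fold, nor did that of Ddit4 (0.50). Over all settings tried, the limma adjusted p of Atf4 in this condition ran from 0.0602 to 0.652. Ddit3 was at 2.53 and 1.42 RPKM in WT and 2.12 and 1.76 RPKM in null libraries, so the WT libraries lay on either side of the null ones. Trib3 was at 0.301 and 0.227 RPKM in WT and 0.316 and 0.282 RPKM in null libraries, below the expression limit.

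Chac1 was at 1.47 and 1.37 RPKM in WT and at 1.94 and 1.89 RPKM in null libraries. Replicates of this glutathione-degrading enzyme lay close together, and the log2 fold change was 0.41 ± 0.10 (limma unadjusted p = 0.0123, adjusted p = 0.165). Chac1 had 42 to 82 reads per library here, and the 95% Poisson interval of the 42 reads ran from 30.3 to 56.8. Counting error was thus wider than the spread between these replicates, and the standard error may be too small. Slc7a11 was at 0.00688 and 0.00653 RPKM in WT and 0.00577 and 0.00555 RPKM in null libraries. Both null libraries lay below both WT libraries, on 8 to 11 reads each, a difference within the counting error of so few reads.

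Asns was at 46.6 and 46.7 RPKM in WT and at 41.1 and 43.6 RPKM in null libraries, the highest level of any of the 10 genes in the series. Its log2 fold change of -0.14 ± 0.08 (limma adjusted p = 0.363) had the size seen in steady state. Psat1 was at 1.95 and 1.53 RPKM in WT and 1.5 and 1.31 RPKM in null libraries, a log2 fold change of -0.28 ± 0.16 (limma adjusted p = 0.368). Phgdh was at 0.232 and 0.158 RPKM in WT and 0.207 and 0.118 RPKM in null libraries, and overlapped. The amino acid enzymes were therefore not among the genes that lay higher in null cells.

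Sesn2 was at 8.25 and 8.46 RPKM in WT and at 11.9 and 9.83 RPKM in null libraries. Both null libraries were above both WT libraries, and the log2 fold change was 0.37 ± 0.12 (limma unadjusted p = 0.0356, adjusted p = 0.220). Ddit4 was at 0.896 and 0.546 RPKM in WT and at 1.45 and 1.18 RPKM in null libraries, a log2 fold change of 0.81 ± 0.25 (limma unadjusted p = 0.0276, adjusted p = 0.204) on 12 reads in the WT pair and 26 in the null pair.

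Whether the genotype difference itself changed between conditions was tested in 1 limma fit of all 12 libraries. None of the 9 genes tested passed an adjusted p of 0.05 at 5-min or at 10-min recovery against steady state, where 0.1% and 0.00835% of 11973 genes passed, and none had an unadjusted p under 0.05, as did 6.51% and 1.64% of all genes. Psat1 had the smallest unadjusted p in both, with log2 fold changes that were lower at recovery by 0.51 ± 0.25 (SE) at 5 min (limma unadjusted p = 0.0787) and by 0.48 ± 0.25 at 10 min (limma unadjusted p = 0.0902). For Atf4 the change was -0.41 ± 0.29 at 5 min and 0.27 ± 0.29 at 10 min. The tables of the 3 conditions share no libraries, but each contrast uses the same steady-state libraries.

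Return of transcription after flavopiridol was read as a ratio to steady state. RPKM at recovery was divided by RPKM in steady state within a genotype, as a linear ratio of means with no test, because scaling between the tables is not stated. RPKM is a share of each library, so a ratio below 1 is a lower share and not an amount per cell. Of the 9 genes expressed in steady state in WT cells, 7 were over 1.5-fold lower without overlap at 5 min, as were 51.6% of 10794 expressed genes. None was over 1.5-fold higher, as were 12.9%. Their median ratio was 0.358, beside 0.631 over all expressed genes. At 10-min recovery 6 were still over 1.5-fold lower (27.6% of all expressed genes) and 1, Asns, was over 1.5-fold higher (31.5%), with a median ratio of 0.624 beside 1.03. Without the second WT library of 10-min recovery, 3 genes were over 1.5-fold lower, and Asns lay at the limit, so that leaving out 1 WT library gave 0 to 2 genes over 1.5-fold higher. Scaling each library to the same median moved the median ratio over all genes to 0.835 at 5 min and 0.825 at 10 min.

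Asns and Sesn2 recovered in step with genes of like span (from 0.75 of the gene's span to its inverse), while Psat1, of nearly the same span, did not. Asns (span 18045 bases) had a WT ratio of 0.739 at 5 min and 1.51 at 10 min, where 1868 genes of like span had medians of 0.553 and 1.54. Sesn2 (17653 bases) had ratios of 0.492 and 1.5, where genes of like span had medians of 0.560 and 1.55. Psat1 (19937 bases) had ratios of 0.223 and 0.624, and only 11.5% and 12.8% of genes of like span were lower. The share of the length behind their RPKM that lies within 10 kb of the start was 52.3% for Psat1, 58.4% for Asns and 63.6% for Sesn2. The part of this share in their ratios was not tested. Phgdh (26799 bases) had ratios of 0.128 and 0.228, with 2.13% and 1.49% of genes of like span lower. Slc7a11, whose steady-state level is below the expression limit, had ratios of 0.243 and 0.188 on 5 to 10 reads per library at recovery. The serine enzymes thus stayed low at both times.

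Among the shorter genes, Trib3 and Ddit3 stayed lower than most genes of like span, Chac1 lay nearer to their medians, and Atf4 lay between. Trib3 (6636 bases) had WT ratios of 0.189 at 5 min and 0.422 at 10 min, with 4.50% and 4.77% of genes of like span lower. Ddit3 (5496 bases) had ratios of 0.358 and 0.506, where genes of like span had medians of 0.833 and 1.53. Its WT libraries gave ratios from 0.216 to 0.500 at 5 min, so this value is loose. Atf4 (2362 bases) was at 0.583 and 0.658 of its steady-state RPKM, where genes of like span had medians of 0.767 and 1.07. Of these genes, 36.9% and 23.5% were lower, and at 10 min Atf4 was below their first quartile of 0.682. Chac1 (3085 bases) was at 0.733 and 1.03, with medians of 0.777 and 1.18. Ddit4 (2096 bases) was at 0.318 and 0.563, on 1 to 7 reads per WT library at recovery.

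In EloA null cells 8 of the same 9 genes were over 1.5-fold lower at 5 min (56.7% of 11128 expressed genes) and none over 1.5-fold higher (12.2%). At 10 min 4 were over 1.5-fold lower (28.6%) and 2, Asns and Sesn2, over 1.5-fold higher (32%). Asns had null ratios of 0.746 and 1.51, and Sesn2 of 0.432 and 1.61. Psat1 had ratios of 0.148 and 0.435, Phgdh of 0.0696 and 0.178, and Trib3 of 0.115 and 0.349. Atf4 had ratios of 0.429 and 0.781, Ddit3 of 0.214 and 0.430, Chac1 of 0.515 and 0.951 and Ddit4 of 0.515 and 0.704. Psat1, Phgdh, Trib3, Ddit3 and Chac1 were lower than in WT at both times. Ddit4 was higher at both, and Asns, Sesn2 and Atf4 were not lower at both. The median over all expressed genes was 0.560 in null and 0.631 in WT cells at 5 min, and 1.02 and 1.03 at 10 min. None of the 9 genes passed the test of the genotype difference between conditions.

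**Figure D3:**
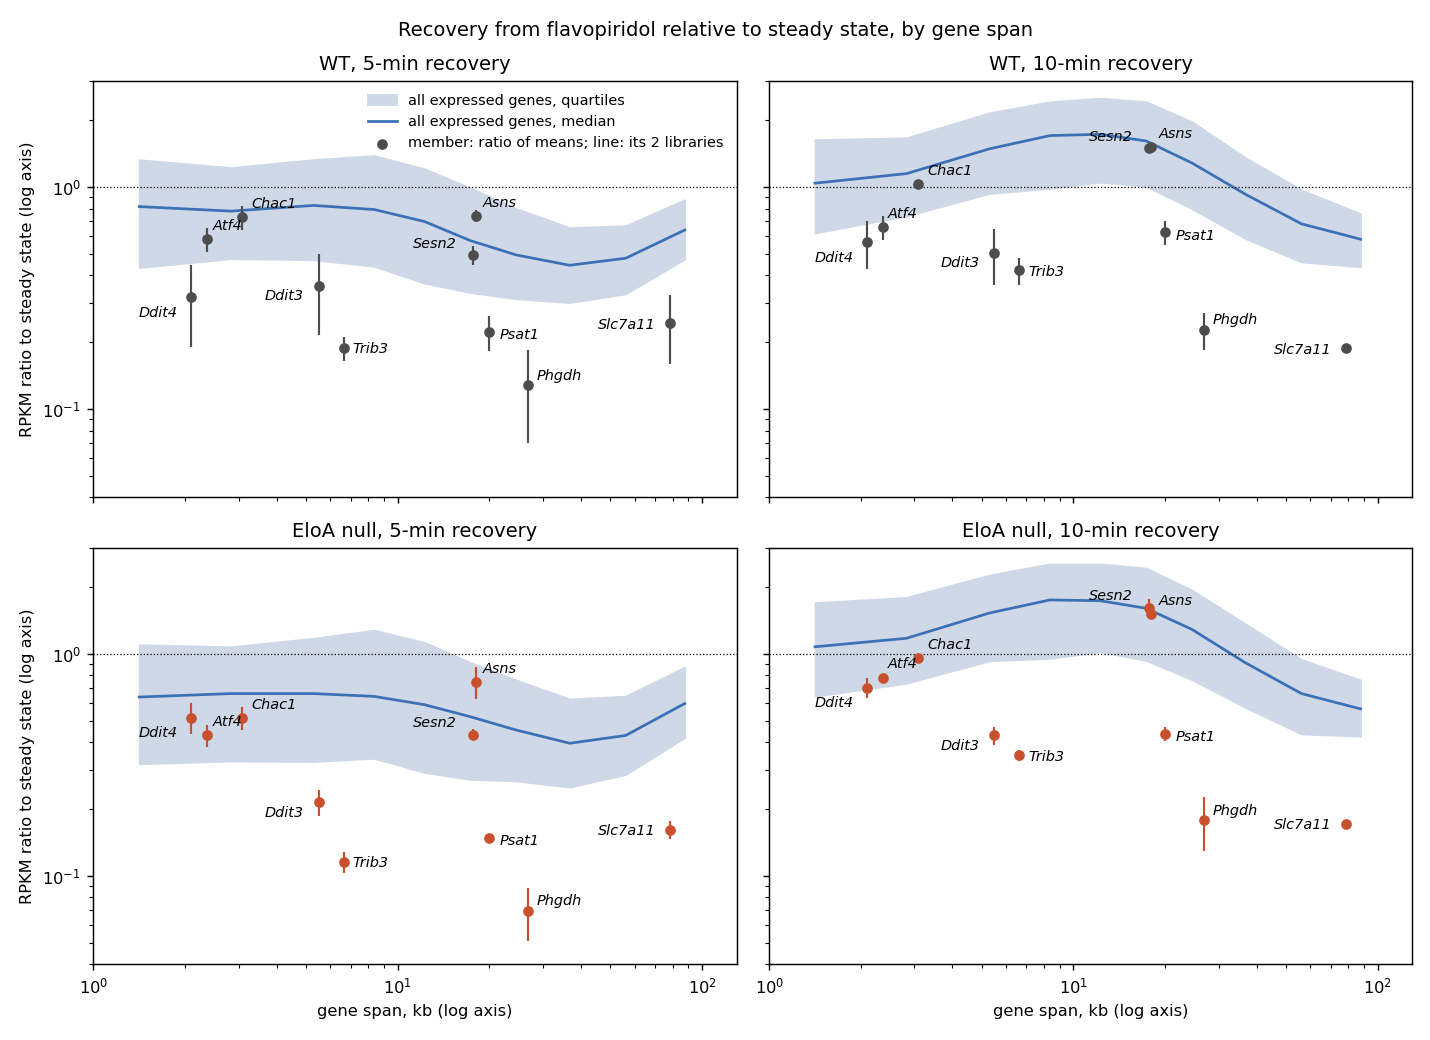
Ratio of RPKM at recovery to RPKM in steady state (log axis) against gene span in kb (log axis), for WT and EloA null cells at 5-min and 10-min recovery. Points are the ratio of means of each of the 10 genes with the values of its 2 recovery libraries as a line, and the band and blue line are the quartiles and median of all expressed genes by span. Asns and Sesn2 lie inside the band in all 4 panels, and Ddit3, Psat1, Phgdh, Trib3 and Slc7a11 lie below it in all 4.

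Around these 10 genes, the rest of the pathway was read from lists of other genes, also chosen with earlier results of these data known. In steady state 32% of all genes tested were higher and 21.4% lower in both null libraries, and 6.24% were over 1.5-fold higher without overlap. At 5 min 4.91% were over 1.5-fold lower, and at 10 min 33.5% were higher, 21.8% lower, 8.43% over 1.5-fold higher and 2.25% over 1.5-fold lower. Kinases, subunits of eIF2 and eIF2B, and phosphatase regulators that switch the response on and off numbered 8, all expressed in steady state. None passed the limma adjusted p of 0.05 in any condition. Ppp1r15a encodes an ATF4-induced regulatory subunit of the phosphatase that dephosphorylates eIF2. It was the only one over 1.5-fold higher in steady state, at 0.818 and 0.770 RPKM in WT and 1.56 and 1.29 RPKM in null libraries (log2 fold change 0.77 ± 0.12, limma adjusted p = 0.111). These values rest on a mean of 29 reads per library. It was again the only one at 10 min, with a log2 fold change of 0.96 ± 0.21. At 5 min its log2 fold change was -0.15, and Eif2ak1, the haem-regulated kinase, named after its values were seen, was over 1.5-fold lower with -0.68. The list's median log2 fold change was 0.05, -0.05 and 0.03 in steady state, at 5 min and at 10 min.

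Of 9 bZIP partners and stress regulators, 7 were tested in steady state and none passed the limma adjusted p in any condition. Atf3, a bZIP repressor induced by ATF4, was at 2.93 and 2.43 RPKM in WT and 1.98 and 1.82 RPKM in null libraries, a log2 fold change of -0.47 ± 0.12. It was over 1.5-fold lower without overlap at 5 min (4.91% of all genes tested), with a log2 fold change of -1.14 ± 0.20. The same held at 10 min (2.25%), with -1.11 ± 0.16. Atf5, a relative of ATF4, went the other way in steady state, at 0.985 and 0.981 RPKM in WT and 1.30 and 1.62 RPKM in null libraries. Nupr1 had a steady-state log2 fold change of 0.48 ± 0.21. The list's median was -0.02, -0.15 and -0.03.

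Amino acid transporters numbered 9, with 8 tested in steady state, of which 6 were higher in both null libraries (32% of all genes tested) and none lower (21.4%). None passed the limma adjusted p in any condition, and the median log2 fold change was 0.25 in steady state, -0.03 at 5 min and 0.17 at 10 min. Slc7a3, a cationic amino acid carrier, was over 1.5-fold higher in steady state (6.24% of all genes), at 2.68 and 2.78 RPKM in WT and 4.55 and 3.81 RPKM in null libraries. Slc1a4 and Slc7a5, which carry small neutral and large neutral amino acids, had steady-state log2 fold changes of 0.44 ± 0.19 and 0.27 ± 0.11.

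Serine, glycine and one-carbon enzymes other than Psat1 and Phgdh numbered 7, with 6 tested in steady state. Of these, 2 were higher (32% of all genes tested) and 2 lower (21.4%) in both null libraries. None passed the limma adjusted p in any condition, and the list's medians were 0.04, -0.16 and 0.03. Shmt2, the mitochondrial serine hydroxymethyltransferase, had a steady-state log2 fold change of 0.47 ± 0.12, and its cytosolic relative Shmt1 one of -0.23 ± 0.10. Psph, which completes serine synthesis after Psat1, had a value of 0.19 ± 0.15.

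Of 11 other amino acid and redox enzymes, 10 were tested in steady state, and the list's medians were 0.17, -0.14 and 0.27. In steady state 4 were higher (32% of all genes tested) and 3 lower (21.4%) in both null libraries. None passed the limma adjusted p in any condition. Pck2, mitochondrial phosphoenolpyruvate carboxykinase and an ATF4 target, was at 1.41 and 1.26 RPKM in WT and 3.32 and 2.62 RPKM in null libraries. Its log2 fold change of 1.09 ± 0.14 (limma adjusted p = 0.105) exceeded that of any of the 10 genes in steady state. Gclc, the catalytic subunit of glutathione synthesis, was lower in both null libraries in steady state, with -0.32 ± 0.10. It was over 1.5-fold lower without overlap at 5 min (4.91% of all genes tested). So was Gclm, its modifier subunit, which was named after its values were seen.

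Aminoacyl-tRNA synthetases, 12 genes that charge tRNAs, were all tested in all 3 conditions with no adjusted p under 0.05 and medians of 0.08, -0.13 and -0.07. In steady state 6 were higher (32% of all genes tested) and 2 lower (21.4%) in both null libraries, and at 10 min 1 was higher (33.5%) and 6 were lower (21.8%). Sars, Yars and Gars had the largest steady-state log2 fold changes, at 0.24, 0.19 and 0.19. Wars, named after its values were seen, was over 1.5-fold lower at 5 min (4.91% of all genes tested), with -0.55.

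The list of 15 mTORC1 brakes, autophagy and death genes also held secreted factors, Vegfa and Gdf15 among them. Of the 15, 14 were tested in steady state, where 9 were higher (32% of all genes tested) and 3 lower (21.4%) in both null libraries. The list's medians were 0.20, -0.02 and 0.32. None passed the limma adjusted p in any condition. Over 1.5-fold higher in steady state (6.24% of all genes) were Vegfa, the angiogenic growth factor, at 1.86 and 1.89 RPKM in WT and 3.41 and 3.76 RPKM in null libraries, Gdf15, a stress-induced cytokine, at 0.645 and 0.913 RPKM in WT and 1.59 and 1.46 RPKM in null libraries, and Tnfrsf10b, the death receptor, at 3.04 and 2.68 RPKM in WT and 4.66 and 4.45 RPKM in null libraries. All 3 were again over 1.5-fold higher at 10 min (8.43%), as was Castor1, an arginine sensor, with a log2 fold change of 1.40 ± 0.24 and named after its values were seen. The log2 fold changes at 10 min were 0.86 ± 0.15 for Vegfa, 0.63 ± 0.10 for Tnfrsf10b and 0.89 ± 0.48 for Gdf15, whose value is thus loose. The other arms of the unfolded protein response, IRE1 and ATF6, were represented by 15 genes, of which 14 were tested in steady state, 7 were higher (32%) and 2 lower (21.4%) in both null libraries, none by over 1.5-fold, and none passed the limma adjusted p in any condition. Syvn1, Herpud1 and Hspa5, which serve disposal and folding in the endoplasmic reticulum, had steady-state log2 fold changes of 0.39, 0.38 and 0.27, and the list's medians were 0.06, 0.07 and 0.14.

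**Figure D4:**
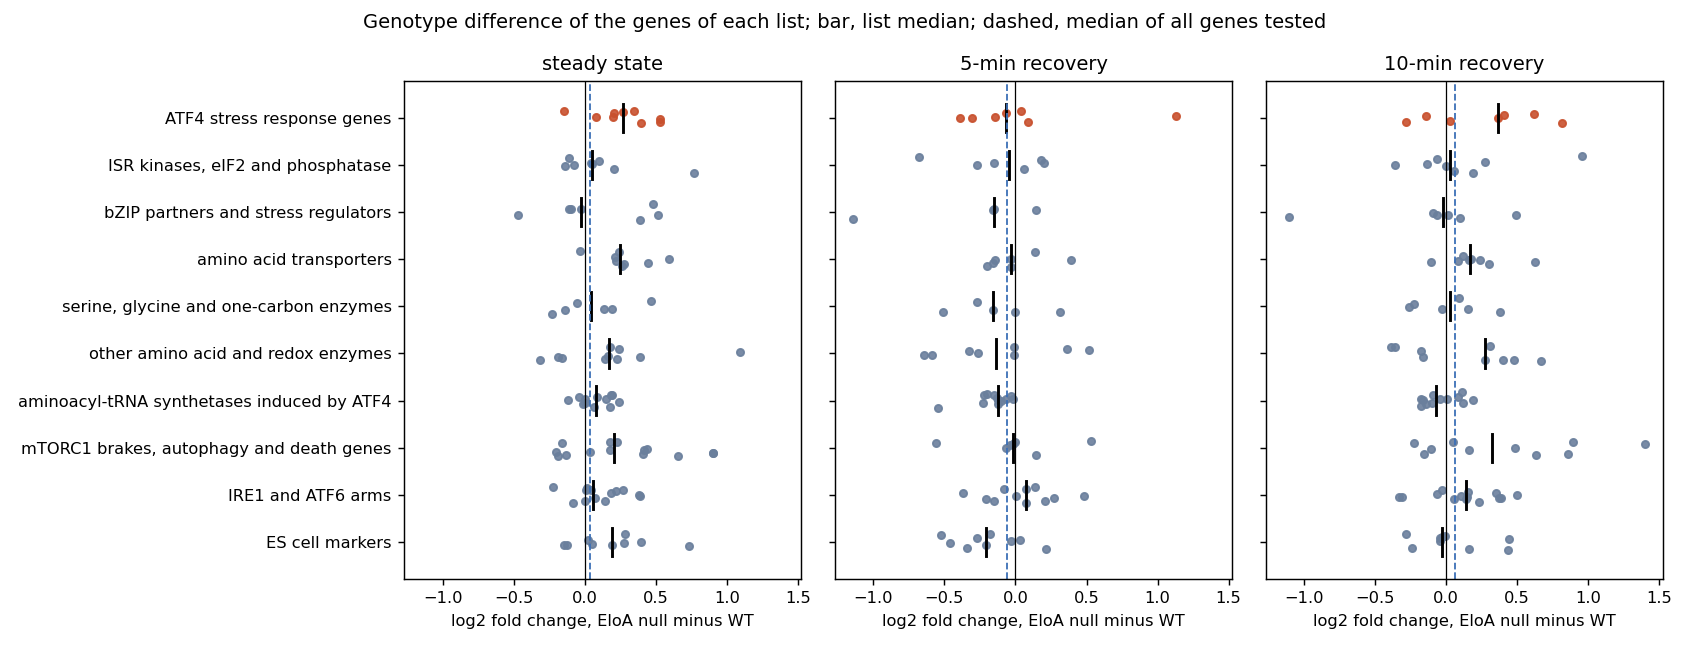
Log2 fold change of EloA null over WT for every gene tested of each list, 1 point per gene, in steady state, 5-min and 10-min recovery. Black bars are list medians, and the dashed line is the median of all genes tested. The feeder markers, of which none was tested in steady state, are not drawn. The medians of the lists drawn lie between -0.21 and 0.37, inside the spread of each list's points, and in their panels the points of Pck2 (steady state), Ddit4 (5 min) and Castor1 (10 min) lie farthest to the right.

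ES cell and feeder markers were read beside these values. Of 9 ES cell markers, all were tested in each condition and none passed the limma adjusted p, with medians of 0.19, -0.21 and -0.03. Pou5f1 was at 7.36 and 8.48 RPKM in WT and 10.6 and 16.5 RPKM in null libraries in steady state, over 1.5-fold higher (6.24% of all genes tested). Nanog had a steady-state log2 fold change of 0.29 ± 0.14 and Dppa5a one of 0.40 ± 0.18. In steady state 4 of the 9 were higher (32% of all genes tested) and 2 lower (21.4%) in both null libraries. At 5 min 0 were higher (15.4%) and 3 lower (25%), and at 10 min 3 were higher (33.5%) and 2 lower (21.8%). The 10 feeder markers summed to 1.33 and 1.49 RPKM in WT and to 0.754 and 1.06 RPKM in null libraries at 5 min, and to 2.06 to 2.64 RPKM in WT and 1.49 to 1.90 RPKM in null libraries at 10 min. Of these, 1 gene, Col1a1, named after its values were seen, was expressed at recovery. It was lower in both null libraries at 5 min (25% of all genes tested) and at 10 min (21.8%). Its log2 fold changes were -0.58 ± 0.26 and -0.43 ± 0.23. The part of either marker list in the values of the 10 genes was not tested.

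Across the 12 libraries the 7 genes expressed in all 3 tables, Atf4, Ddit3, Chac1, Asns, Psat1, Sesn2 and Ddit4, had Pearson correlations of log2(RPKM + 0.1) from 0.21 to 0.94 over 21 pairs, none of them negative. Ddit3 with Psat1 was the closest pair (0.94), followed by Asns with Sesn2 (0.88), and Asns with Ddit4 the loosest (0.21). Since the 12 libraries are 3 conditions of unequal depth and labelling time, these values describe mainly how the genes follow the conditions. Among 7098 other genes searched, those most like the mean standardised profile of the 7 genes over the 12 libraries were Zxdc (Pearson r = 0.994), Camsap3 (0.994), St14 (0.993), Cep89 (0.992) and Mphosph8 (0.992).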

How the data were processed

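Bru-seq libraries of WT and EloA null mESCs were used as the RPKM values that the authors deposited, 1 table per condition. Per the labels and methods, paired-end reads were aligned to mm10 and dm3 with bowtie2 2.3.4.3, unique reads were kept, and reads in whole RefSeq genes were counted with featureCounts 1.6.1 and normalised to RPKM with edgeR by the authors. Second strand synthesis was directional and strands were separated with samtools, but whether genes were counted by strand, the RefSeq release and the scaling between tables are not given in the sources used here. The 16 CUT&RUN and ChIP samples and the authors' mean columns were not used here.

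Of 24984 rows, 4 with repeated names were left out, and 24414 names matched RefSeq GRCm38.p6 by symbol and 422 by older symbol. RPKM times length gave whole reads in 89.5% of 10145 expressed genes with introns, when the length was the summed introns plus 2 bases each. For the 10 genes this held in all 12 libraries. Whole meant within 0.05 of a read, with a wider limit at high reads, in over 90% of a gene's libraries. The length was chosen among a gene's RefSeq transcripts to make reads whole, so these shares are partly set by the choice. The full span gave 0.0887% and a length 37 bases too long 0.0296%, and summed exons were not tried. Read numbers printed are recovered from the chosen lengths.

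Genotypes were compared within a table with limma 3.58.1 (R 4.3.3; empirical Bayes with intensity trend) on log2(RPKM + 0.1) for genes with a mean above 0.5 RPKM in either genotype, with Benjamini-Hochberg adjustment over all of them. Fold changes on this scale understate those of low genes. The interaction used all 12 libraries. Exact permutation of 2 against 2 libraries cannot give a two-sided p below 0.333. The ISR, bZIP, transporter, enzyme, synthetase, mTORC1, IRE1/ATF6, ES cell and feeder lists, and the 10 genes, were chosen with earlier results of these data known. From each list at most 3 genes were named by rule, those of largest steady-state log2 fold change with at least 20 reads on average, and Eif2ak1, Gclm, Wars, Castor1 and Col1a1 were added after their values were seen; like genes were the 5 with the highest Pearson correlation. Scripts were tested on simulated data. Alternatives covered pseudocount, RPKM limit, spread, scaling, replicate number, GC content and each library left out.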

Additional observations from a re-analysis of the deposited data

How the results depend on the processing

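Of 353 log2 fold changes of the 10 genes under other settings, 336 kept their direction, 17 turned and 0 passed an adjusted p of 0.05. The lowest adjusted p was 0.0602, for Atf4 at 10-min recovery, when genes needed a mean of 20 reads per library, a limit that, like GC correction, was added after seeing the data. Phgdh in steady state turned to -0.0221 with quantile normalization and to -0.0376 with the GC trend removed, Atf4 at 5 min to 0.00074 with median centring, Chac1 at 5 min to -0.0073 with the GC trend removed, and Ddit3 at 10 min to -0.0721 with median centring, -0.0725 with quantile normalization and -0.0703 with the GC trend removed. Removing the GC trend also lowered Atf4 at 10 min from 0.61 to 0.28 and Ddit4 from 0.81 to 0.46. Leaving out each library in turn gave Phgdh from -0.0596 to 0.21 in steady state, at 5 min Atf4 from -0.24 to 0.11, Ddit3 from -0.95 to 0.17, Chac1 from -0.13 to 0.20, Asns from -0.38 to 0.0920 and Sesn2 from -0.0480 to 0.22, and at 10 min Ddit3 from -0.37 to 0.42. The causes were not tested.

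Genes over 1.5-fold higher in null libraries without overlap numbered 1 to 2 in steady state and 0 to 2 at 10 min when 1 library was left out, and 0 to 2 were over 1.5-fold lower at 5 min. The 1 such higher gene at 5 min became 0 with RPKM above 2 or with the limit on reads, and the 2 at 10 min became 1 with either, since Ddit4 was then not tested, or with median centring. With each library scaled to the same median, 0 genes in WT and 0 in null cells stayed over 1.5-fold higher at 10 min than in steady state, and the log2 ratio of Asns in null cells at 5 min became 0.0677. Leaving out 1 library gave 0 to 2 such genes in WT and 1 to 2 in null cells, and 3 to 6 lower genes in WT.

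Over all genes, the 0 calls in each table became up to 643 in steady state and 417 at 10 min with the limit on reads, and 532 at 5 min where all 12 libraries shared the spread; interaction calls ran from 2 to 97 at 5 min and from 1 to 54 at 10 min. Same-numbered libraries correlated at 0.101, 0.119 and 0.103 in their deviations, and the numbers mark no shared source in the labels. A replicate block gave 0, 128 and 0 calls over all genes and changed no call of the 10 genes (0 past adjusted p of 0.05 in each table). Depth limits Ddit4, Trib3 and Slc7a11 most, with as few as 1, 6 and 4 reads in a library.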
